A study of Mus musculus with 32 samples.

Results

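The replication-dependent histone cluster genes were followed across 4 kinds of mouse lung mononuclear phagocyte and 2 inbred strains. The members were the rows of the deposited expression table whose gene symbol starts with Hist1h, Hist2h, Hist3h or Hist4h, which gave 69 of 24940 genes. They comprised 6 genes of the linker histone H1 and, among the core histones, 19 of H2A, 19 of H2B, 12 of H3 and 13 of H4. The Hist1 cluster on chromosome 13 held 55 of them, the Hist2 cluster on chromosome 3 held 10, the Hist3 cluster on chromosome 11 held 3, and Hist4h4 was the single member on chromosome 6.

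Core histones form the octamer around which DNA is wound, and H1 binds the linker DNA between octamers. The cluster genes are mostly intronless, are transcribed in S phase, and give messages that end in a stem-loop bound by SLBP in place of a poly(A) tail. A few of them, Hist1h1c, Hist1h2bc and Hist2h2be among them, are known also to give polyadenylated messages in cells that do not divide. The libraries were made from polyA RNA, so a value here is the part of a histone message that passed that selection, and not the whole histone message of the cell.

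The groups were alveolar macrophages (AM), which live in the air spaces, interstitial macrophages (IM), which live in the tissue between them, and 2 kinds of monocyte, inflammatory (iMo) and patrolling (pMo), each from C57BL6J and from DBA2J mice, with 2 RNA libraries in each of the 8 groups. All were labelled as untreated and were sorted from digested lungs with antibodies to SiglecF, CD64, CD45, F4/80, CD11b, CD11c, Ly6g and Ly6c. The sample labels call the iMo and pMo cells macrophages, whereas the design text calls them monocytes, and "monocytes" below means both together. No label says whether 2 libraries of a group came from different animals, so the p-values measure only the spread between these libraries, which may be technical. Chromatin accessibility was given as 1 ATAC-seq peak list for each of the same 8 groups, each list standing for 2 ATAC libraries, 16 in all.

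Expression was deposited as TPM, a share of transcripts corrected for gene length. In every library the TPM of a gene multiplied by its deposited length was, for at least 99.87% of the values tested, a whole multiple of 1 fixed step, so the number of reads behind each value could be worked out. The libraries held 6676151 to 22616591 such reads, and the 2 ribosomal entries Rn45s and Mir6236 took 26.2% to 29.8% of them in AM against 4.73% to 18.9% elsewhere. Marker levels, as reads summed over a list and scaled to 1000000 non-ribosomal reads (RPM), followed the labels for AM (3420 to 8379 over 10 alveolar macrophage genes, at most 1689 elsewhere) and for pMo (12969.7 to 15049 over 9 patrolling monocyte genes, at most 5807 elsewhere). The same held for IM (3475 to 5466 over 10 interstitial macrophage genes, at most 2905 elsewhere) and for iMo (9928 to 12494 over 8 inflammatory monocyte genes, at most 7083 elsewhere, in AM). The 12 neutrophil genes summed to 2335 to 4035 in IM, 26.7 to 84.5 in AM, 503 to 612 in iMo and 280.4 to 417.3 in pMo, and Elane and Mpo were at 0 in all IM and AM libraries. The 7 B cell genes in the table summed to 37.0 to 186 in AM, 298 to 764 in IM, 73.3 to 519 in iMo, 182 and 257 in pMo of C57BL6J, and 2742 and 2356 in pMo of DBA2J, where Cd22 stood at 788.7 and 1033 TPM. Fewer cells of a type and less RNA per cell cannot be told apart in such sorted bulk samples.

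The promoters of 6 members are shown, because the families differ in the short motifs they carry and because peaks were called at most of these start sites. Each runs from 200 bases before the RefSeq start to 20 after it, 5′ to 3′ on the strand of the gene (RefSeq, build GRCm38.p6, the reference that mm10 names). Capitals mark CCAAT, the box TATAAA, the octamer ATTTGCAT and the H1 motif AAACACA on either strand, so ATTGG is a CCAAT read on the opposite strand. The positions are chr13:23738607-23738826 (+) for Hist1h1c, chr13:23554832-23555051 (+) for Hist1h1d, chr13:21753893-21754112 (-) for Hist1h2ak, chr11:58954485-58954704 (+) for Hist3h2a, chr13:23562366-23562585 (-) for Hist1h3e and chr13:23581368-23581587 (+) for Hist1h4d.
Hist1h1c: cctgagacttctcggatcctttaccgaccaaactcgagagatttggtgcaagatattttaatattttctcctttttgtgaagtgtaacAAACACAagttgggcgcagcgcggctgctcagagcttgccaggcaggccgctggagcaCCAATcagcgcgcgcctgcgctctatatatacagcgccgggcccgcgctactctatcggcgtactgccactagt
Hist1h1d: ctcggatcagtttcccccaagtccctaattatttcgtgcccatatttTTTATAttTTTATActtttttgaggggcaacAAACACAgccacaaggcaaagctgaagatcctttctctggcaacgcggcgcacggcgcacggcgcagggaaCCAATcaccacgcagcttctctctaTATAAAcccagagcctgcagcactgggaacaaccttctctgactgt
Hist1h2ak: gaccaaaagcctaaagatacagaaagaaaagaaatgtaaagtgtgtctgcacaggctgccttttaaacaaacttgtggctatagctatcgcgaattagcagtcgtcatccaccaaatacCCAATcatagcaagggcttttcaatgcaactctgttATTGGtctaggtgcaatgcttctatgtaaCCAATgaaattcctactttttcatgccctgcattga
Hist3h2a: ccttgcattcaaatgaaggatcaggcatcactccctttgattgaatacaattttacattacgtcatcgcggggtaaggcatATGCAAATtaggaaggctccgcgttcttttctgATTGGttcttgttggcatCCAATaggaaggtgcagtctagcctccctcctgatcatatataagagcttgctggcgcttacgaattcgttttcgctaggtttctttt
Hist1h3e: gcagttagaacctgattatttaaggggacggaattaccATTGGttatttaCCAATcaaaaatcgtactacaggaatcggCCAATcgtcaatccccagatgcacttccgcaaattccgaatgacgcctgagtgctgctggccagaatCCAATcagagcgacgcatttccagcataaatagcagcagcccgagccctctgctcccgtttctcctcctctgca
Hist1h4d: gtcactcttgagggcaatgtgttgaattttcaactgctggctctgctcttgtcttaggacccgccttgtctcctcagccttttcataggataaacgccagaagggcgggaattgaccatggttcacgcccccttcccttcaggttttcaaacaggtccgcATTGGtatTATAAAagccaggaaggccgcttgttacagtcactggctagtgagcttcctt

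Over windows of 300 bases, from 250 before the start to 50 after it, 56 of the 69 members had a sequence in the RefSeq table with a start within 50 bp of the deposited one, and all 69 were matched by accession. CCAAT stood in 48 of the 56 (85.7%), against 37.4% of all 32851 promoters in the table. It was in all 6 H1, 15 H2A, 15 H2B and 9 H3 promoters but in 3 of the 11 H4 promoters, among which Hist1h4d carries it next to its TATAAA. The octamer ATTTGCAT, a site known to be bound by Oct1 in H2B promoters, was found in 7 H2A and 7 H2B promoters and in none of H1, H3 or H4, against 1.74% of all promoters. AAACACA, long known from H1 promoters, was in 5 of 6 H1 promoters against 7.18% of all. TATAAA was in 33 of 56 (58.9%) against 13.6%. The H2A and H2B windows are not separate observations, since many H2A and H2B genes lie head to head and share the bases between them.

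Reads of the 69 genes made up a larger share of the AM libraries than of any other library except in 1 case. In RPM, they stood at 107 and 99.5 in the C57BL6J AM libraries and 63.2 and 40.2 in the DBA2J AM libraries. The IM libraries had 29.5 and 30.0 in C57BL6J and 32.2 and 30.0 in DBA2J, the iMo libraries 43.0 and 19.4 in C57BL6J and 24.2 and 23.2 in DBA2J, and the pMo libraries 33.0 and 20.8 in C57BL6J and 26.8 and 12.4 in DBA2J. The exception was 1 C57BL6J iMo library at 43.0, just above the lowest AM library at 40.2. Depth went with cell type too: the AM libraries held 9972361 to 15886147 non-ribosomal reads, IM 5936096 to 10078282, iMo 6380647 to 12170075 and pMo 9045446 to 12111275.

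**Figure D1:**
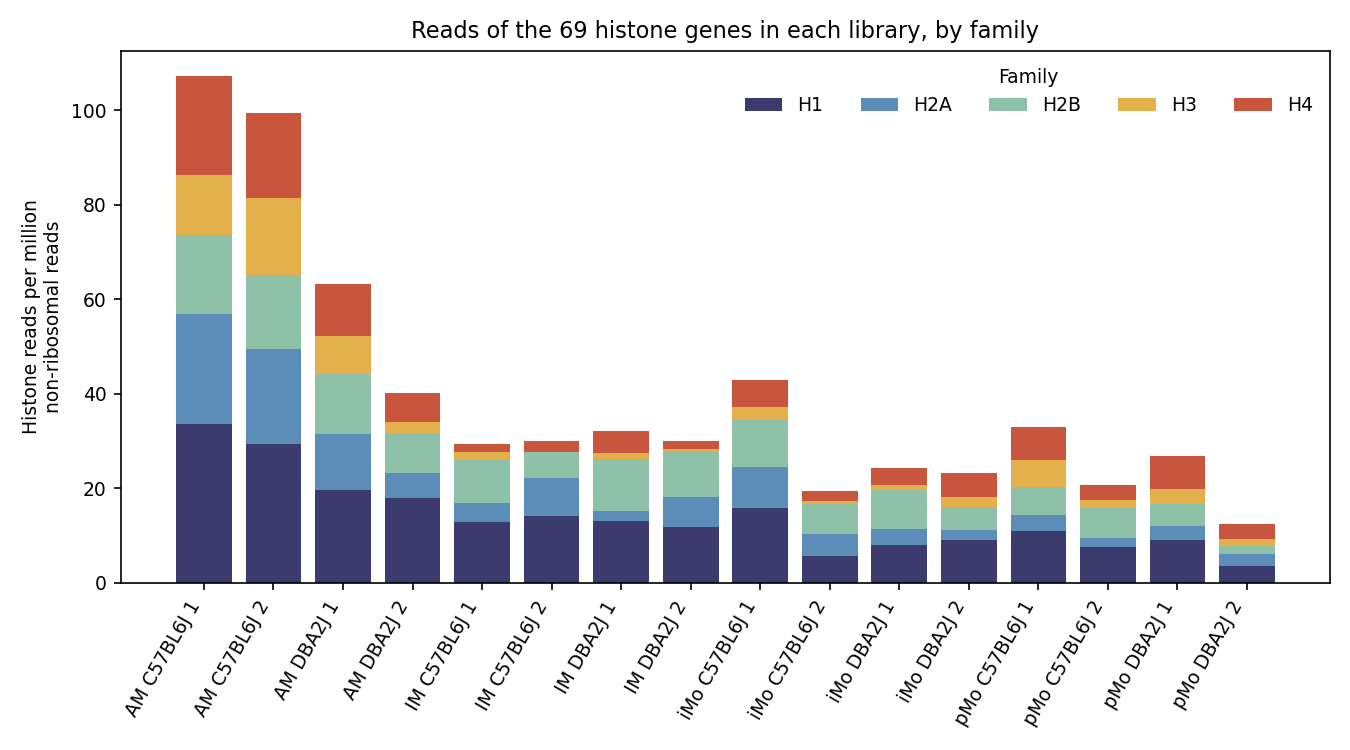
Summed reads of the 69 histone genes in RPM (vertical axis) in each of the 16 libraries (horizontal axis), stacked by family. The C57BL6J AM libraries stand at 107 and 99.5, the DBA2J AM libraries at 63.2 and 40.2, and the other 12 libraries between 12.4 and 43.0.

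The sum rested on few reads and few genes. There were 7197 member reads over all libraries, of which Hist1h1c gave 21.5% and the 10 most-read members 67.8%. No read was counted for 11 members, and 58 had at least 1. For 9 members the deposited table lists 2 copies, and 7 of those had no read, with 4 reads over the 9 together. Histone coding sequences are near-identical between members of a family, and the sources used here do not say how reads that fit several places were counted, so the split of reads between members is uncertain. At the median member length of 471 bp, 1 read was worth 0.554 to 0.918 TPM in AM and up to 2.80 TPM in iMo.

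With Hist1h1c, Hist3h2a, Hist1h2bc and Hist2h2be left out, the AM libraries still held 73.9, 72.7, 37.5 and 20.7 RPM of histone reads. The other libraries then held 5.66 to 12.9 in IM, 8.15 to 19.9 in iMo and 6.44 to 19.6 in pMo, all below the lowest AM library. By family the AM means were 25.2 ± 7.59 for H1, 15.1 ± 8.15 for H2A, 13.4 ± 3.71 for H2B, 9.77 ± 5.92 for H3 and 14.1 ± 6.74 for H4 (RPM, SD, n = 4 libraries). In IM the same means were 12.95 ± 0.962, 5.16 ± 2.62, 8.84 ± 2.48, 0.836 ± 0.797 and 2.62 ± 1.45 (SD, n = 4). H3 had the lowest mean of the 5 families in IM, as it did in AM and in iMo (1.67). The IM libraries had 0 to 13 H3 reads each.

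Most members with any read were most abundant in AM. Of the 58, 51 had their highest RPM in AM, and 46 had their highest mean TPM there. No such share over all genes is given here. Detection was also wider, since 42 had reads in all 4 AM libraries, against 6 in all 4 IM, 12 in all 4 iMo and 11 in all 4 pMo libraries. Detection depends on depth: at the median member length, 1 read was worth 0.691 TPM in AM but 2.05 TPM in IM (means over libraries). The detection counts are therefore not read as a difference in level. Reads in AM and none in any IM library were found for 24 members. For 20 of those the AM level lay above the limit that 3 reads over the IM libraries allows, and they were at least 1.13-fold to at least 14.9-fold higher in AM (counting error only, and reads are not separate molecules). Hist1h2bl, an H2B gene, had 24 reads in AM and 0 in the other 12 libraries, which makes it at least 15.6-fold higher in AM than in those libraries pooled.

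To test single genes, log2(TPM + 1) was fitted with limma over the 8 groups for 12277 genes, those averaging 1 TPM or more over the 16 libraries. A gene counts as called where its p, adjusted by Benjamini-Hochberg over the 12277, was under 0.05. That minimum let through 44 members, some of them only through AM, so their counts describe those 44 and not the 69. In AM minus IM, 23 of the 44 were higher in AM and 1 was lower, where 9.19% of all genes tested were called higher and 61.1% lower (70.2% in either direction). The median difference was 1.73 for these members and -0.68 for all genes tested. In AM minus monocytes, 24 were higher and 1 lower, against 14.3% and 54.2% of all genes (68.5% in either direction), with medians of 1.38 and -0.49.

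With the minimum set on the 12 libraries outside AM, an alternative added after seeing the data, 35 members were tested, and 15 were higher and 1 lower in both comparisons, against 8.11% of all genes higher in AM than in IM and 13% higher in AM than in monocytes. The split of calls over all genes depended on scaling, because the median gene was at -0.68 (AM minus IM) as deposited and at 0.03 under median-of-ratios scaling. With that scaling 32 members were higher and 1 lower in AM than in IM, where 31.6% of all genes were called higher and 30% lower. Against monocytes it gave 35 higher and 1 lower, where 31.2% of all genes were called higher and 30.5% lower.

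**Figure D2:**
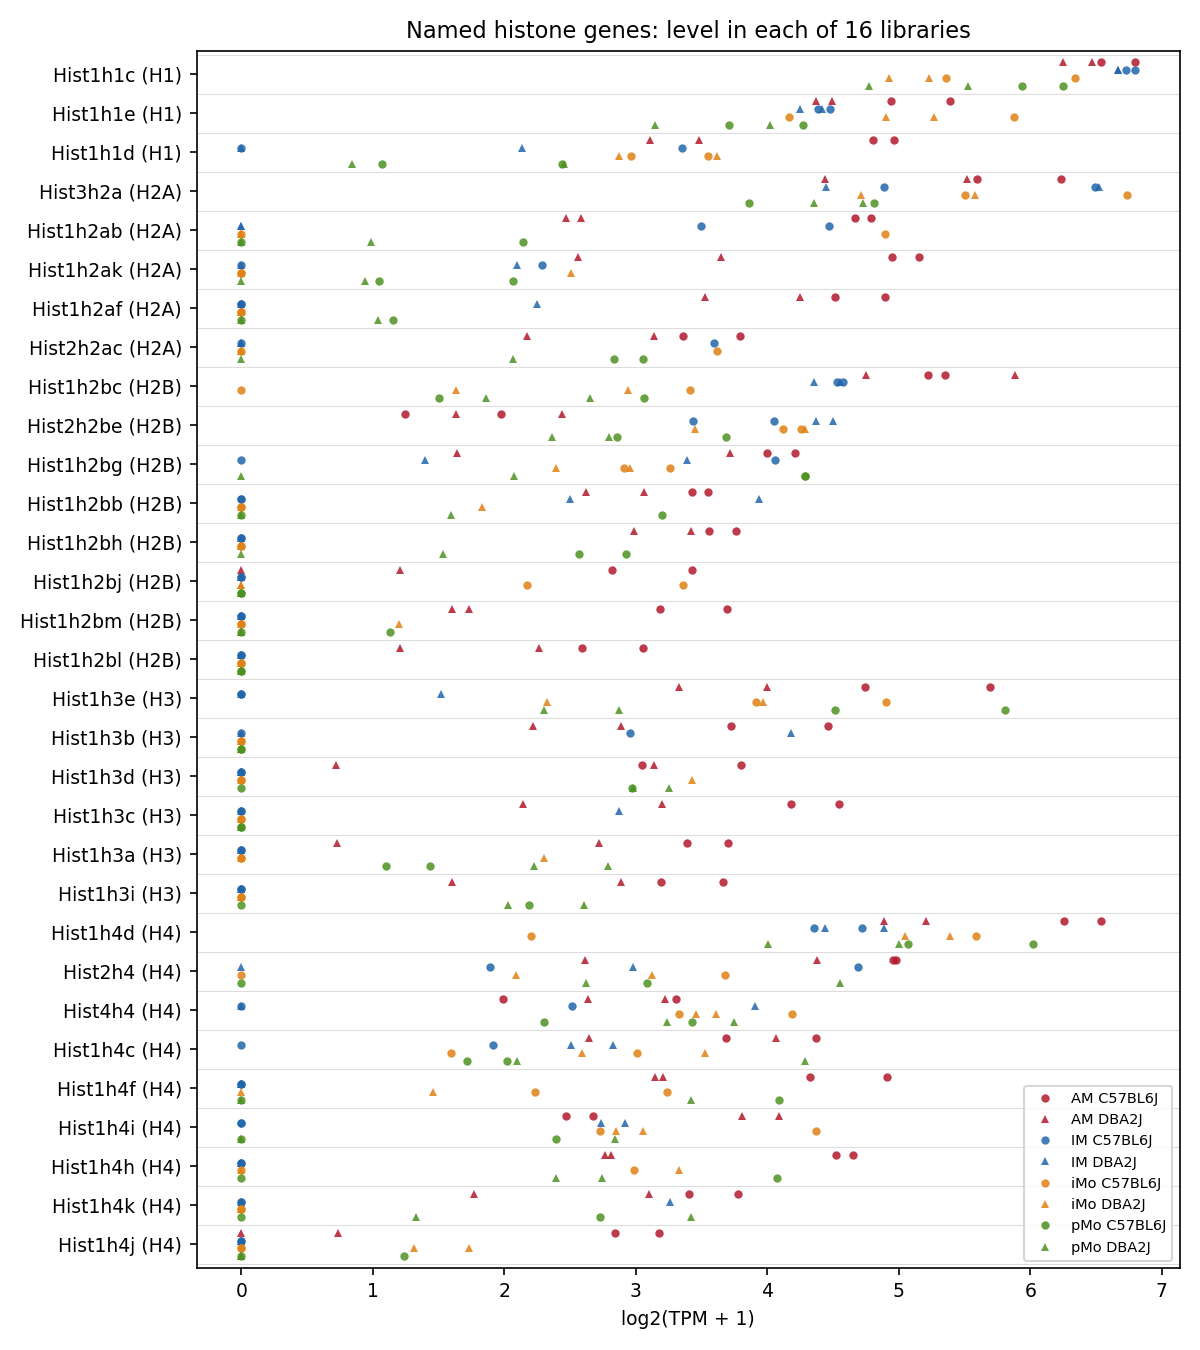
Level of 31 named histone genes as log2(TPM + 1) (horizontal axis) in each of the 16 libraries, grouped by family, with circles for C57BL6J and triangles for DBA2J. Hist1h1c, Hist3h2a and Hist1h4d are found in every library, and Hist2h2be is low in the 4 AM libraries. Many H2B and H3 genes are at 0 in some libraries outside AM, and Hist1h2bl is at 0 in all of those.

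Hist1h1c, a somatic H1, had the highest mean of the cluster genes over the 16 libraries, at 73.3 TPM, although in iMo its mean of 46.5 TPM lay below the 55.4 TPM of the H2A gene Hist3h2a. In TPM it stood at 109.9, 91.6, 75.1 and 87.6 in AM (C57BL6J replicates 1 and 2, then DBA2J replicates 1 and 2, the order kept below). It stood at 110.1, 104.9, 100.5 and 100.4 in IM, at 80.0, 40.1, 29.3 and 36.6 in iMo, and at 75.1, 60.2, 45.1 and 26.3 in pMo. The AM and IM values overlapped, and the IM values lay above all monocyte values. The AM minus IM difference was -0.20 ± 0.22 (log2, SE, limma adjusted p = 0.421) and turned positive under 4 of 28 alternatives, in none of which it was called, whereas AM minus monocytes was 0.97 ± 0.19 (limma adjusted p = 0.000733) and IM minus monocytes 1.17 ± 0.19 (limma adjusted p = 0.000507).

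Hist1h1d, another somatic H1, was at 30.1, 27.0, 10.1 and 7.60 TPM in AM and at 0, 9.19, 3.39 and 0 TPM in IM. Its difference of 2.72 ± 0.70 passed the test (limma adjusted p = 0.00473), although the lowest AM value lay below the highest IM value. Against monocytes the difference was 1.61 ± 0.61 (limma adjusted p = 0.0338), a call lost under 10 of 28 alternatives. Hist1h1e, also a somatic H1, was at 41.0, 29.8, 21.5 and 19.7 TPM in AM and 19.9, 21.3, 18.0 and 20.4 TPM in IM, which overlap, and its difference of 0.42 ± 0.33 did not pass (limma adjusted p = 0.268), but did under 4 of 28 alternatives. No read was counted for the testis H1 gene Hist1h1t.

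Among the H2A genes, Hist3h2a was found in every library, and Hist1h2af and Hist1h2ak had most of their reads in AM. Hist3h2a stood at 74.2, 47.4, 44.8 and 20.6 TPM in AM, 28.6, 89.0, 20.7 and 91.1 TPM in IM, 105 to 25.2 TPM in iMo and 27.1 to 13.5 TPM in pMo. The values overlapped between all 4 cell types, and no comparison of Hist3h2a passed the test. Hist1h2ak stood at 29.9, 34.6, 11.5 and 4.89 TPM in AM, with at most 4.67 TPM in any other library.

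The groups did not overlap for Hist1h2ak, whose differences were 2.98 ± 0.67 against IM (limma adjusted p = 0.00195) and 3.26 ± 0.58 against monocytes (limma adjusted p = 0.000393). Hist1h2af was at 28.7, 21.8, 18.0 and 10.5 TPM in AM and at most 3.75 TPM elsewhere, with differences of 3.73 ± 0.45 (limma adjusted p = 2.65e-05) and 4.02 ± 0.39 (limma adjusted p = 3.31e-06). Over all 4 AM libraries against all 12 others, 6 members had no overlap and were higher in AM, which 3.84% of the genes tested did. These were Hist1h2af, Hist1h2ak, Hist1h2bc, Hist1h2bh, Hist1h2bl and Hist1h2bm. Hist1h2af, Hist1h2bl and Hist1h2bm averaged 0.503, 0 and 0.207 TPM outside AM, so they passed the minimum of 1 TPM only through AM. That selection favours a higher level in AM, so the count is a description. No tested member had all 4 AM libraries below the other 12, which 30.4% of genes did. A member without reads in any library outside AM could not show this, and only 6 of the 69 had reads in all 4 IM libraries. For most members that outcome was therefore fixed by missing reads, and nothing is drawn from it.

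The H2B genes held both extremes. Hist1h2bc stood at 39.7, 36.3, 58.1 and 25.9 TPM in AM, at 22.1, 22.8, 22.5 and 19.4 TPM in IM, at 9.65, 0, 6.67 and 2.10 TPM in iMo, and at 7.34, 1.83, 5.28 and 2.62 TPM in pMo. The 3 levels, AM, IM and monocytes, did not overlap in any library. AM minus monocytes was 3.17 ± 0.55 (limma adjusted p = 0.000356) and IM minus monocytes 2.37 ± 0.55 (limma adjusted p = 0.00559), but AM minus IM, at 0.80 ± 0.64, did not pass (limma adjusted p = 0.283), although it did under 2 of 28 alternatives.

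Hist2h2be was the 1 called member that was lower in AM. It stood at 2.92, 1.37, 2.10 and 4.42 TPM in AM, at 15.5, 9.79, 19.7 and 21.6 TPM in IM, at 18.1, 16.3, 18.5 and 9.94 TPM in iMo, and at 6.23, 11.9, 5.93 and 4.15 TPM in pMo. AM and IM did not overlap, nor did AM and iMo. The difference was -2.27 ± 0.28 against IM (limma adjusted p = 3.4e-05) and -1.65 ± 0.24 against monocytes (limma adjusted p = 0.0001), and neither call was lost under any of the 28 alternatives. Its deposited length of 2666 bp is longer than the 471 bp of the median member, so its TPM stands for more reads, and it gave 12.4% to 25.2% of the histone reads in IM but 0.886% to 5.83% in AM.

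The next H2B genes followed the AM pattern. Hist1h2bh was at 10.8, 12.5, 9.69 and 6.91 TPM in AM, 0 in every IM and iMo library, and 6.59, 4.92, 1.90 and 0 TPM in pMo. It was higher in AM than in IM by 3.43 ± 0.28 (limma adjusted p = 1.31e-06) and lower in iMo than in pMo, at -1.76 ± 0.28 (limma adjusted p = 0.000896). Groups at 0 in every library add no spread to the shared SE, and the iMo minus pMo difference rests on 11 pMo reads. Fitted on the reads with voom, that difference was -1.72 ± 0.68 and was not called (voom adjusted p = 0.0669). Hist1h2bl, listed at 0 outside AM, was at 5.03, 7.29, 1.30 and 3.80 TPM in AM.

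Among the H3 genes, Hist1h3e was shared by AM and monocytes and nearly absent in IM. It stood at 25.8, 50.7, 14.9 and 9.06 TPM in AM, at 0, 0, 1.87 and 0 TPM in IM (1 read in all), at 28.9, 14.1, 4.00 and 14.6 TPM in iMo, and at 54.9, 21.9, 6.32 and 3.93 TPM in pMo. IM did not overlap with any other cell type. AM minus IM was 4.06 ± 0.47 (limma adjusted p = 1.97e-05) and IM minus monocytes -3.44 ± 0.40 (limma adjusted p = 5.54e-05), while AM minus monocytes, at 0.62 ± 0.40, did not pass (limma adjusted p = 0.198) but did under 4 of 28 alternatives.

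Hist1h3b and Hist1h3c had no read in any monocyte library. Hist1h3c stood at 17.2, 22.3, 8.19 and 3.41 TPM in AM, and its 79 AM reads make it at least 36.6-fold higher there than in the 8 monocyte libraries pooled. In IM a single library held 4 reads of it, at 6.32 TPM. Hist1h3b stood at 12.2, 21.0, 3.66 and 6.40 TPM in AM and at 6.75, 0, 17.1 and 0 TPM in IM, which overlap, and its AM minus IM difference did not pass (1.54 ± 0.79, limma adjusted p = 0.104), though it did under 6 of 28 alternatives.

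Among the H4 genes, Hist1h4d was detected in all 16 libraries, and its neighbours in the family mostly were not. It stood at 91.9, 75.4, 35.9 and 28.5 TPM in AM, 25.4, 19.4, 28.7 and 20.6 TPM in IM, 47.2, 3.60, 40.8 and 32.1 TPM in iMo and 63.9, 32.6, 31.0 and 15.1 TPM in pMo. All cell types overlapped, AM and IM only at 28.5 and 28.7 TPM, and AM minus IM, at 1.12 ± 0.57, did not pass (limma adjusted p = 0.0978) but did under 8 of 28 alternatives. Hist1h4f was at 29.1, 19.0, 7.85 and 8.24 TPM in AM and at 0 in all IM libraries, a difference of 3.90 ± 0.86 (limma adjusted p = 0.00176).

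**Figure D3:**
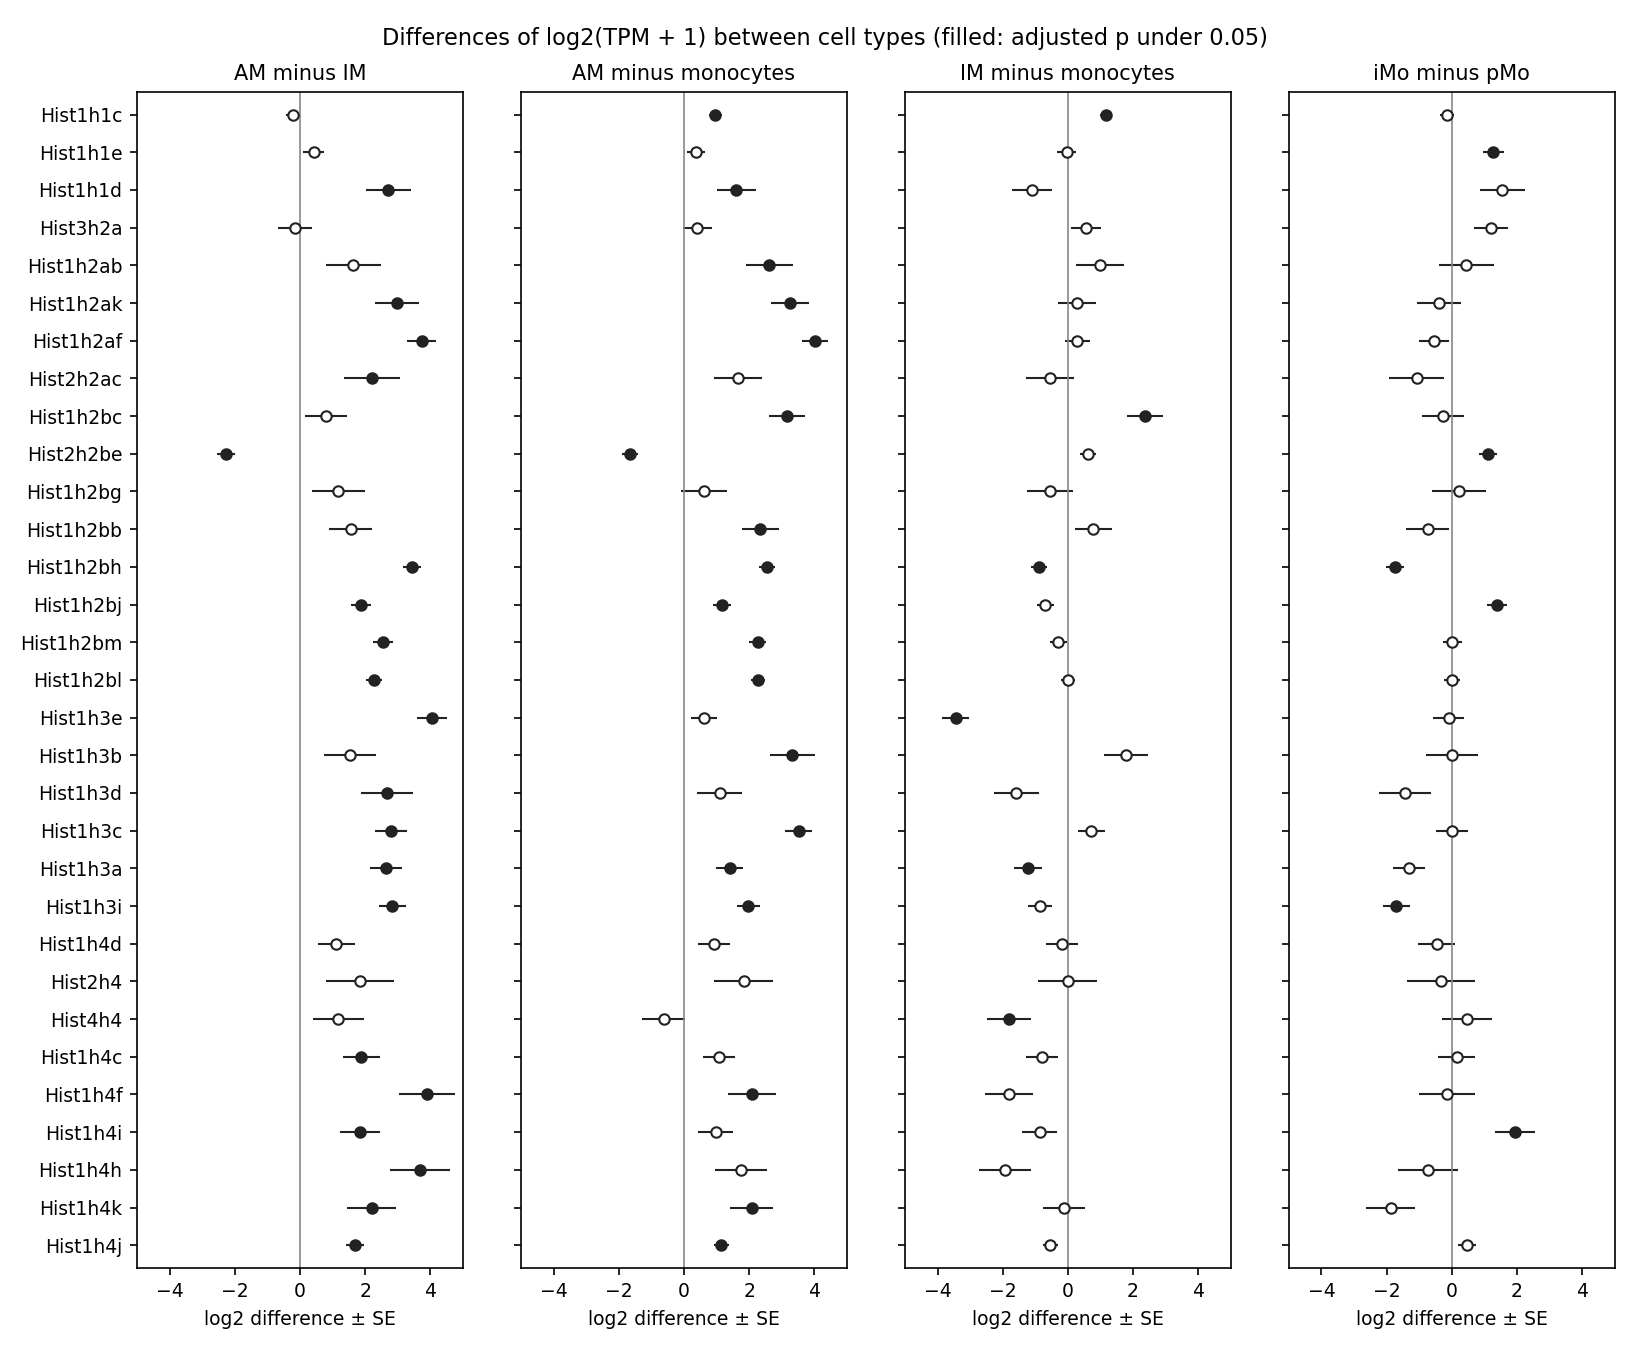
Difference of log2(TPM + 1) with its SE (horizontal axis) for 31 named histone genes in 4 comparisons, with filled points where the limma adjusted p was under 0.05. Most filled points lie right of 0 in AM minus IM and AM minus monocytes, with Hist2h2be at -2.27 and -1.65, while IM minus monocytes and iMo minus pMo have few.

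Outside AM fewer members were called. In IM minus monocytes, 2 of 44 were higher (Hist1h1c and Hist1h2bc) and 4 lower (Hist1h3e, Hist4h4, Hist1h3a and Hist1h2bh), against 28.4% and 12.5% of all genes (40.9% in either direction). The called members numbered 11 without pMo C57BL6J replicate 2. In iMo minus pMo, 4 were higher in iMo (Hist1h1e, Hist2h2be, Hist1h2bj and Hist1h4i) and 2 lower (Hist1h2bh and Hist1h3i), against 18.9% and 6.36% (25.3% in either direction). The Hist4h4 call sat at the threshold (limma adjusted p = 0.05 when rounded), and the Hist4h4 and Hist1h4i calls were each lost under 20 of 28 alternatives, with an adjusted p of up to 0.262 and 0.177. The Hist1h3a call was lost under 14 of the 28, and that of Hist1h1e between iMo and pMo under 7. The 6 calls between iMo and pMo became 3 without iMo DBA2J replicate 1 or without pMo DBA2J replicate 2, and Hist1h2bj rested on 5 iMo reads. The 69 genes summed to 19.4 to 43.0 RPM in iMo and 12.4 to 33.0 in pMo, which overlap.

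Between the strains, the AM libraries of DBA2J held less histone message than those of C57BL6J. Over 44 tested members, 34 had both DBA2J AM libraries below both C57BL6J AM libraries and 2 had both above, whereas over all genes tested 17.9% were below and 35.2% above. Some of the 44 passed the minimum of 1 TPM only through their C57BL6J AM values, which favours being counted as below. Hist1h2bk averaged 4.69 TPM in AM of C57BL6J, 0.281 in AM of DBA2J and 0.510 outside AM, and Hist1h4j 7.10, 0.332 and 0.430 TPM. The same count of members below was 3 in IM, 3 in iMo and 9 in pMo, where 29.6%, 30.5% and 25.9% of all genes were below. A member without reads in either C57BL6J library of a cell type could not be counted as below. Reads in all 4 libraries were found for 42 of the 69 members in AM, but for 6 in IM, 12 in iMo and 11 in pMo. The counts of the cell types are therefore not compared with each other. In AM, Hist1h4d was at 91.9 and 75.4 TPM in C57BL6J and at 35.9 and 28.5 TPM in DBA2J, a difference of -1.35 ± 0.80 (log2, SE), and Hist1h1c at 109.9 and 91.6 TPM against 75.1 and 87.6 TPM, -0.30 ± 0.31. This count of libraries that do not overlap was made after the values were seen, with 2 replicates a strain. Other lists split the AM libraries by strain in the same direction: in RPM, alveolar macrophage genes stood at 8379 and 8012 in C57BL6J against 3879 and 3420 in DBA2J, epithelial genes at 137 and 131 against 32.8 and 40.5, B cell genes at 184 and 186 against 37.0 and 55.8, and neutrophil genes at 84.5 and 82.4 against 32.4 and 26.7. The T and NK cell genes, at 224 and 214 against 299 and 295, and the erythroid genes, at 8.72 and 13.5 against 43.6 and 31.2, went in the opposite direction. Single genes gave most AM reads of some lists: Chil3 52.9% of the alveolar macrophage reads, Cdh1 69.5% of the epithelial, Cd22 77.4% of the B cell and Csf3r 89.3% of the neutrophil reads. Chil3 was at 1119 and 1012 TPM in AM of C57BL6J against 311 and 314 in DBA2J. The alveolar macrophage gene Ear1 went the other way, at 471 and 484 against 624 and 826 TPM, as did Ear2, and Krt79 overlapped. The part of these lists in the strain difference was not tested.

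Averaged over cell types, 4 members were called lower in DBA2J and none higher, against 7.31% and 4.37% of all genes (11.7% in either direction). They were Hist1h2ab (-2.30 ± 0.59, limma adjusted p = 0.0273), Hist1h2bj (-1.32 ± 0.22, limma adjusted p = 0.00209), Hist1h3e (-1.16 ± 0.33, limma adjusted p = 0.0447) and Hist1h1c (-0.53 ± 0.15, limma adjusted p = 0.0463). Hist1h2bj kept its call under every alternative in which it was tested, and the other 3 lost it under 13 to 21 of 27. Just 1 of the 4 was left without either AM library of either strain, IM DBA2J replicate 2, iMo DBA2J replicate 1 or pMo C57BL6J replicate 1, each left out in turn. The number was 2 without IM C57BL6J replicate 1, IM DBA2J replicate 1, iMo C57BL6J replicate 1 or iMo DBA2J replicate 2.

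A strain difference that itself differed between cell types was called for 2 members, against 4.03% of all genes, and the other 42 did not pass. Hist1h4j, an H4 gene, was at 6.15, 8.04, 0.664 and 0 TPM in AM and at 0, 0, 1.48 and 2.33 TPM in iMo (limma F-test adjusted p = 0.00912). Hist1h2bj was at 6.06, 9.76, 1.31 and 0 TPM in AM and at 3.52, 9.25, 0 and 0 TPM in iMo, with 0 in all IM and pMo libraries (limma F-test adjusted p = 0.0269). Its strain differences in AM and iMo were alike, at -2.52 and -2.77. In IM and pMo no read was counted, so the strain difference there is unknown and the fit takes it as 0. For Hist1h2bj the call therefore does not show a difference between cell types. Both calls rest on 0 to 16 reads a library. The number called was 1 without AM C57BL6J replicate 1 or 2, iMo DBA2J replicate 1 or 2, or pMo DBA2J replicate 2.

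Genes of the cell cycle were partly higher in AM too. Of 26 DNA replication genes, 20 were tested: against IM, 4 of them were higher in AM and 2 lower, and against monocytes 11 were higher and 1 lower, where 9.19% and 14.3% of all genes were called higher and 61.1% and 54.2% lower. Under median-of-ratios scaling these became 16 and 1 against IM, and 17 and 1 against monocytes, where 31.6% and 31.2% of all genes were called higher and 30% and 30.5% lower. Rrm2, the S-phase subunit of ribonucleotide reductase, was higher in AM by 1.41 ± 0.17 against IM (limma adjusted p = 2.5e-05). Of 15 mitosis genes 11 were tested, with 5 higher and 0 lower against IM (10 and 0 under that scaling), and 9 higher and 0 lower against monocytes. Summed RPM of the replication list were 593, 613, 422 and 428 in AM, 268 to 472 in IM, 185 to 231 in iMo and 237 to 316 in pMo.

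In the mitosis list the sums were 335, 368, 179 and 202 in AM, 106 to 161 in IM, 43.8 to 62.4 in iMo and 66.0 to 116 in pMo. Both lists, like the histone sum, were higher in the C57BL6J than in the DBA2J AM libraries. In IM, 11 of 20 replication and 7 of 11 mitosis genes were higher than in monocytes and 0 lower, while 2 histone members were higher and 4 lower, where 28.4% of all genes were called higher and 12.5% lower. Under quantile normalization the replication count became 6 higher and 3 lower and the mitosis count 6 higher and 1 lower, with 18.7% of all genes higher and 26.8% lower.

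**Figure D4:**
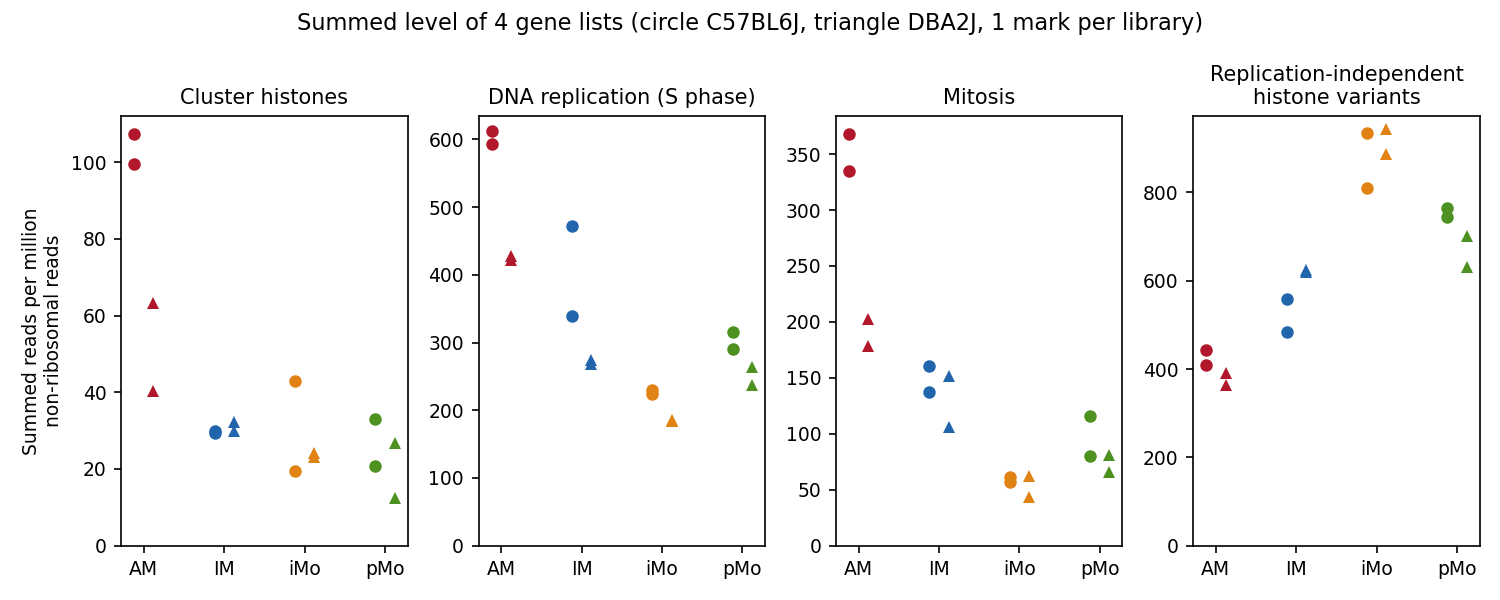
Summed RPM (vertical axes, each from 0) in each library for the 69 cluster histones, 26 DNA replication genes, 15 mitosis genes and 11 replication-independent histone variants, by cell type. The highest library is from AM in the first 3 panels, and in the last panel AM is lowest, at 364 to 444.

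The replication-independent variants package chromatin outside S phase and carry ordinary poly(A) tails. Of 11, 9 were tested, and 1 was higher and 6 lower in AM than in IM, with the same counts against monocytes, near the shares of all genes (9.19% higher and 61.1% lower against IM, 14.3% and 54.2% against monocytes). Median-of-ratios scaling gave 2 higher and 5 lower against IM (31.6% and 30% of all genes), and 1 and 4 against monocytes (31.2% and 30.5%). H3f3a, which encodes H3.3, differed by -2.42 ± 0.21 from IM (limma adjusted p = 1.8e-06), as did H1f0, the linker histone of non-dividing cells, at -1.47 ± 0.23 (limma adjusted p = 0.000184). The 1 that was higher was H2afx, whose product marks broken DNA and whose message can end in either form, by 1.14 ± 0.20 (limma adjusted p = 0.000359). Their sum was 364 to 444 RPM in AM, 485 to 624 in IM, 811 to 943 in iMo and 630.3 to 765.6 in pMo.

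The counts for the machinery that makes and ends histone messages depended on scaling, as did those over all genes. Of its 17 genes 16 were tested, with 1 higher and 13 lower in AM than in IM as deposited, but 5 higher and 4 lower under median-of-ratios scaling. Against monocytes the counts were 0 higher and 13 lower as deposited, and 2 and 5 under that scaling. Slbp, which binds the stem-loop, differed by -0.90 ± 0.12 between AM and IM as deposited (limma adjusted p = 6.5e-05), and Npat, the activator of histone transcription, by -1.08 ± 0.19 (limma adjusted p = 0.000485). With 61.1% and 54.2% of all genes called lower in the same comparisons, the counts as deposited stand in a table in which most genes were lower in AM. Of 19 histone chaperones and assembly factors, all tested, 1 was higher and 13 lower against IM as deposited. Under median-of-ratios scaling this turned to 7 higher and 3 lower (31.6% and 30% of all genes). Chaf1a, the large subunit of the replication-coupled assembly factor CAF-1, was the 1 that was higher as deposited, by 0.55 ± 0.19 (limma adjusted p = 0.0252).

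The libraries with most histone reads also differed in markers of other cells. The 11 T and NK cell genes in the table summed to 214 to 299 RPM in AM and at most 119.6 elsewhere, but Cd2 alone gave 97.4% of those AM reads, and the other 10, Cd3d and Cd3e among them, had a lower mean TPM in AM than in IM. The 8 endothelial genes summed to 354 to 466 in AM and 142 to 549 in IM, with 74.3% of the AM reads from Vwf and a lower mean TPM in AM than in IM for the other 7, and the 7 epithelial genes to 32.8 to 137 in AM and 8.77 to 68.7 in IM. Erythroid genes, 6 in all, were at 8.72 to 43.6 in AM and 2.22 to 32.6 elsewhere. None of these lists was at 0 as a whole in any library, and their part in the histone differences was not tested. The part of the neutrophil messages in IM, and of the ribosomal share in AM, beyond the scaling without the 2 ribosomal entries, was not tested.

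Most start sites of the histone genes carried a peak. Within 500 bp of the start site, 40 of 69 members had a peak in AM C57BL6J and 44 in AM DBA2J, where 33.1% and 36.8% of all genes did and 59.8% and 65.6% of the genes tested for expression. In the IM lists the numbers were 59 and 42 (50.7% and 39.4% of all genes, 82.8% and 69.7% of tested genes), in the iMo lists 49 and 42 (40.6% and 43.0%, 71.1% and 74.3%), and in the pMo lists 53 and 50 (40.8% and 39.6%, 73.3% and 70.7%), C57BL6J first. The share of members, 58.0% to 85.5%, was above that of all genes in each list. With only the better-scored peaks it was below in iMo DBA2J, at 23.2% against 35.6%. The 69 include members under the 1 TPM minimum, 11 of them without a read. Their share is therefore not compared with that of tested genes. The lists differ in length, from 24429 peaks in IM DBA2J to 70013 in IM C57BL6J, so their counts are not compared as changes.

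Peaks in all 8 lists were found for 25 members, or 36.2%, against 27.8% of all genes and 51.2% of the genes tested for expression. No list had a peak for 9 members, of which 7 had no read and 4 are listed with 2 copies. Hist1h1b and Hist1h2al had reads but no peak. Reads without a peak were common: 12 members had AM reads but no peak in either AM list, and 4 of these, Hist1h2ak, Hist1h2bl, Hist1h2bn and Hist1h3i, had a peak in all 6 lists outside AM, although their reads were mostly in AM. The single member with peaks in AM alone was Hist1h4j, in 1 of the AM lists.

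**Figure D5:**
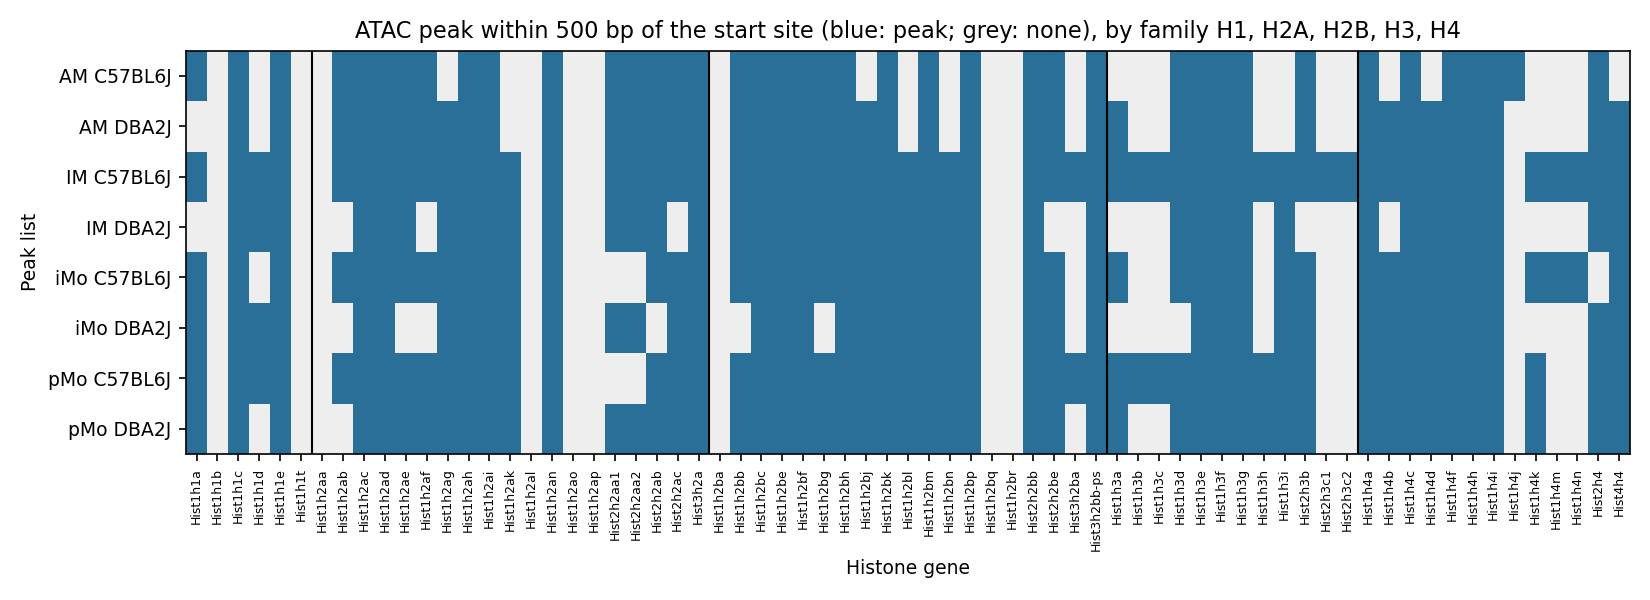
Each of the 69 histone genes (horizontal axis, by family) against the 8 ATAC peak lists (vertical axis), with blue where a peak lies within 500 bp of the start site. Members with a peak number 40 to 59 in a list, and 9 members have none in any list.

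Divergent promoters of H2A and H2B genes join 11 pairs of members whose start sites lie 173 to 306 bp apart, and the read counts of the 2 genes of a pair often differed. Hist2h2ac and Hist2h2be, 192 bp apart on chromosome 3, had 51 and 88 reads in AM, 5 and 198 in IM, 7 and 203 in iMo, and 12 and 116 in pMo. Per length the order in AM is the reverse, with means of 8.36 TPM for Hist2h2ac and 2.70 TPM for Hist2h2be, against 2.77 and 16.7 TPM in IM. In AM minus IM the H2A gene was higher by 2.22 ± 0.85 (limma adjusted p = 0.0357) and the H2B gene differed by -2.27 ± 0.28 (limma adjusted p = 3.4e-05). The Hist2h2ac call was lost under 7 of 28 alternatives. Hist1h2ac and Hist1h2bc, 240 bp apart on chromosome 13, had 8 and 242 AM reads, and Hist1h2ak and Hist1h2bn, 211 bp apart, had 138 and 11. Between Hist1h2ak and Hist1h2bn lies much of the promoter printed above.

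By Pearson correlation over the 16 libraries with the summed histone TPM, the 3 most alike genes outside the set were Spef1 (r = 0.886), Atp5g3 (r = 0.858) and 2410015M20Rik (r = 0.841). The AM libraries stand apart in all of them, and the libraries share depth and ribosomal share, so the values describe these libraries and carry no test. Spef1 averaged 25.5 TPM in AM and 3.43 TPM outside it.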

How the data were processed

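RNA was measured in 16 libraries and accessibility in 16 ATAC libraries. Tools named in the submitters' processing notes were STAR, Bowtie and HOMER, with build mm10; their roles and versions, the treatment of reads with several positions and the genome used for DBA2J reads are not given in the sources used here. The authors deposited TPM per gene and library. The deposited Length column equals end minus start for 99.2% of rows, so for a gene with introns TPM is per genomic span, and levels are compared between genes only among members without introns. Reads were worked out as TPM times length divided by the library's step, within 0.1 read for at least 99.87% of the values tested and for 100% of the member values. The deposited peak lists carry a score per peak, used only to rank peaks within a list.

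Here log2(TPM + 1) was fitted with limma 3.58.1 in R 4.3.3 (8 group means, eBayes with trend, 8 residual degrees of freedom), after checks on simulated data. Member genes were named when a group mean reached 10 TPM, when called with a group mean of 3 TPM (up to 10 per comparison, by size), or as the most abundant of a family. Genes of other lists were named from the called ones, up to 4 per list and comparison, beside the 3 genes most like the summed level. Tables and figures were made with Python 3.11.15, pandas 2.3.3 and matplotlib 3.10.9. The members and lists were chosen with earlier results of these data known. Same-numbered replicates deviated together only weakly (correlation -0.07 to 0.20 over 28 pairs of groups), so no pairing was assumed.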

Additional observations from a re-analysis of the deposited data

Results flagged for a closer look

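In groups of 4 libraries of 1 cell type, 107 sets of values of the named genes and of the summed level that were not all equal were screened for a library far from the other 3, and 16 were marked. In 14 of them 1 library had reads and the other 3 had none, which marks a set whatever its number of reads. Of the other 93 sets 2 were marked, where chance marks about 1 in 20. In IM these were Hist1h2af at 3.75 TPM in DBA2J replicate 1, Hist1h3c at 6.32 TPM in DBA2J replicate 2, Hist1h3e at 1.87 TPM in DBA2J replicate 1, Hist1h4k at 8.59 TPM in DBA2J replicate 1 and Hist2h2ac at 11.1 TPM in C57BL6J replicate 1. In iMo these were Hist1h2ab at 28.8 TPM in C57BL6J replicate 2, Hist1h2ak at 4.67 TPM in DBA2J replicate 1, Hist1h2bb at 2.55 TPM in DBA2J replicate 1, Hist1h2bm at 1.3 TPM in DBA2J replicate 1, Hist1h3a at 3.92 TPM in DBA2J replicate 2, Hist1h3d at 9.76 TPM in DBA2J replicate 2 and Hist2h2ac at 11.3 TPM in C57BL6J replicate 1. In pMo these were Hist1h2bm at 1.19 TPM in C57BL6J replicate 1 and Hist1h4j at 1.36 TPM in C57BL6J replicate 1. Apart from these, Hist1h4c was at 18.5 TPM in pMo DBA2J replicate 1, against 2.29 to 3.29 TPM in the other pMo libraries. Hist1h4i was at 19.7 TPM in iMo C57BL6J replicate 2, against 5.62 to 7.32 TPM in the other iMo libraries, and its iMo minus pMo difference is named in the report.

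A strain difference that differed between cell types was called for Hist1h4j (limma F-test adjusted p = 0.00912) and Hist1h2bj (limma F-test adjusted p = 0.0269). Hist1h4j was lower in DBA2J in AM, at -2.64 ± 0.39, and higher in iMo, at 1.52 ± 0.39 (log2, SE). Hist1h2bj was lower in DBA2J in AM, at -2.52 ± 0.44, and in iMo, at -2.77 ± 0.44, with no read in IM or pMo, where its strain difference is unknown.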

How the results depend on the processing

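None of the 55 called gene differences changed direction under the alternatives in which it was tested. Of the 6 printed differences that were not called, Hist1h1c in AM minus IM turned positive, at 0.65 under median-of-ratios scaling, 0.31 under quantile normalization, 0.33 without the ribosomal entries and 0.25 with voom. The counts of called members moved by more than 1.5 times as follows. With the minimum at a mean of 5 TPM the counts were 9 for AM minus IM, 8 for AM minus monocytes, 3 for iMo minus pMo and 0 for strain by cell type, on fewer genes tested. For strain, 1 member was called with no minimum, and 2 were called under median-of-ratios scaling, under quantile normalization, once the ribosomal entries were dropped, or at a pseudocount of 0.1. For strain by cell type, 0 were called with the pseudocount of 0.1. For iMo minus pMo, 3 were called without the ribosomal entries and 3 when only the groups compared were fitted. For the alternatives chosen after seeing the data, voom on the reads called 3 for iMo minus pMo, 3 for IM minus monocytes and 0 for strain by cell type, and the minimum set outside AM left 16 for AM minus monocytes and 1 for strain by cell type. The cause was not tested.

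Leaving out 1 library at a time gave 19 to 29 called members for AM minus IM, 17 to 32 for AM minus monocytes, 4 to 11 for IM minus monocytes, 3 to 8 for iMo minus pMo, 1 to 5 for strain and 1 to 3 for strain by cell type. With the replicate number as a block the counts were 26, 26, 8, 6, 3 and 2 in that order, and none moved by over 1.5 times. Fitting only the groups compared was not run for strain and strain by cell type, which use all groups. With the better-scored peaks of each list, members with a peak at the start site numbered 19 in AM C57BL6J (27.5%, against 20.4% of all genes). They numbered 23 in IM DBA2J (33.3% against 30.9%), 28 in iMo C57BL6J (40.6% against 32.2%) and 30 in pMo DBA2J (43.5% against 31.0%). In iMo DBA2J they numbered 16, and their share of 23.2% was below the 35.6% of all genes.

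With 1 read worth up to 2.80 TPM at the median member length, a member listed at 0 outside AM may be present below that depth.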
